A study of Mus musculus with 9 samples.

Results

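The respiratory chain complexes I to IV were followed through 43 nuclear-encoded genes in mouse embryonic fibroblasts (MEFs) lacking thiol oxidases of the endoplasmic reticulum. The members were chosen by name and not by their levels: 25 subunits of complex I, 4 of complex II, 6 of complex III, and 8 genes of complex IV, of which 2, Cox10 and Cox15, make its haem A. All 43 were measured, among 19938 genes in all, and none was removed by a filter on low values. Gene expression was measured on 9 Affymetrix arrays, 3 for each of 3 genotypes, called WT, DM and TM. All cells are described as T antigen transformed MEFs of the background that the labels write as C57B/L6, cultured in DMEM with non-essential amino acids. The methods place their isolation at embryonic day 13.5. In the methods some figures used primary and others immortalized MEFs, and the cells of the arrays are not specified. The paper relates its array results to a main figure made with primary MEFs. The DM MEFs were mutant for Ero1α (m/m) and Ero1β (m/m). The TM MEFs also carried the mutant X-linked Prdx4 allele (m/y). The labels call the controls wild type, while in the study's methods they carry 1 mutant copy of Ero1α (m/+), both of Ero1β (m/m) and an intact Prdx4 (+/+), so by that account all 3 genotypes shared the Ero1β mutation. Whether replicate arrays stand for different cultures or embryos is not given, so p-values measure the spread between arrays, which may be technical.

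The respiratory chain passes electrons from NADH and succinate to oxygen and pumps protons across the inner mitochondrial membrane. Complex I oxidises NADH and complex II oxidises succinate, and both hand electrons to coenzyme Q. Complex III passes them on to cytochrome c, and complex IV uses them to reduce oxygen to water. Most subunits are encoded in the nucleus and imported into mitochondria, while a few core subunits of complexes I, III and IV are encoded by mitochondrial DNA. In fibroblasts these are housekeeping genes, expressed in all cells that respire.

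Levels are given on the log2 scale of the deposited RMA values, on which a difference of 1 is a doubling, and they do not rank different genes. The Ero1a level, which checks the genotypes, was 11.86 in WT, 9.46 in DM and 9.06 in TM MEFs, and that of Prdx4 was 10.56, 10.68 and 6.30. Ero1b was between 7.52 and 8.02 on all arrays, near the array medians of 7.62 to 7.72. Arrays of the same genotype correlated at r = 0.994 to 0.997 over genes, and arrays of different genotypes at 0.976 to 0.984. The DM arrays stood apart from the other 6 in Xist, the RNA that silences an X chromosome in females, at 12.56 against 5.70 in WT and 5.72 in TM. The Y-linked genes Eif2s3y, Kdm5d and Uty were lower in DM, so the sex of the cultures and the DM genotype cannot be told apart. Eif2s3y was at 10.24 in WT, 8.23 in DM and 10.31 in TM, so by these genes the WT arrays read as male, like TM. The methods write the X-linked Prdx4 of the controls as +/+, which is a female genotype. This conflict with the stated control genotype was not resolved. Fibroblast markers had summed levels of 15.10 to 15.38 on the log2 scale over 10 genes, although Lum lay below the array medians on every array and Thy1 near or below them in WT and DM. Of 8 markers of epithelium and mesothelium, 4 were called higher and 1 lower in DM than in WT MEFs, and their summed level was 12.28 to 12.35 in WT, 13.46 to 13.62 in DM and 10.58 to 10.74 in TM. The part of these differences in the results below was not tested. In such bulk RNA, fewer cells of a type and less RNA per cell cannot be told apart.

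The promoters of the members were read from RefSeq (GRCm38.p6), which holds an entry for 34 of the 43. The array files name no genome build, so these positions are those of RefSeq alone. The 250 bases before the gene's start are shown, 5′ to 3′ on the gene's strand, for the 3 complex I genes called lower in DM MEFs whose window overlaps no other gene. Ndufb7, a complex I gene that fell in both mutants by less than 1.5-fold, and Cox6a1, a complex IV gene whose level barely differed, are shown beside them. Both of these windows hold matches, and those of the 3 called genes hold none, so the windows shown do not stand for all members. Ndufa5 and Ndufb6, which did not pass against WT, also hold matches in windows clear of other genes and are not shown. Capitals mark the letters searched for 2 factors known to act on respiratory chain genes, nuclear respiratory factor 1 (NRF1, GCGCANGCG or CGCNTGCGC on the other strand) and the ETS factor GABP (CCGGAAG or CTTCCGG).
Ndufs4, chr13:114388095-114388344, minus strand: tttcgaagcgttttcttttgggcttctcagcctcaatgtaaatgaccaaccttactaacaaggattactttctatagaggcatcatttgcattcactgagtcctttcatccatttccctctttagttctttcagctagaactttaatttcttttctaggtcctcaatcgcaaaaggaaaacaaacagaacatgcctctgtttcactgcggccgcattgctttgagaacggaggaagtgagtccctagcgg
Ndufa9, chr6:126849145-126849394, minus strand: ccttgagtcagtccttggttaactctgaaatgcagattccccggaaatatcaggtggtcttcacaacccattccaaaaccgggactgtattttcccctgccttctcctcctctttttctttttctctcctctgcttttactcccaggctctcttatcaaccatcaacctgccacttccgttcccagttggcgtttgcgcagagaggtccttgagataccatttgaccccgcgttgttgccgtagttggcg
Ndufb8, chr19:44555443-44555692, minus strand: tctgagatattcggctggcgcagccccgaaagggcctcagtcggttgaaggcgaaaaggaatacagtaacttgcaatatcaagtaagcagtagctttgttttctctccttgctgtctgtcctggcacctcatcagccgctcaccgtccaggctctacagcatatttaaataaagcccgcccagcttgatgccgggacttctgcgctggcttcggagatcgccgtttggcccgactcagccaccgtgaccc
Ndufb7, chr8:83566508-83566757, plus strand: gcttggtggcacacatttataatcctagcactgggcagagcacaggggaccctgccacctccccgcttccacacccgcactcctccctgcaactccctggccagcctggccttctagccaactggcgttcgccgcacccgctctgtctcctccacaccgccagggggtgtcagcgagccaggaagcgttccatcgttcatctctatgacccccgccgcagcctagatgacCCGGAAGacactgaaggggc
Cox6a1, chr5:115348959-115349208, minus strand: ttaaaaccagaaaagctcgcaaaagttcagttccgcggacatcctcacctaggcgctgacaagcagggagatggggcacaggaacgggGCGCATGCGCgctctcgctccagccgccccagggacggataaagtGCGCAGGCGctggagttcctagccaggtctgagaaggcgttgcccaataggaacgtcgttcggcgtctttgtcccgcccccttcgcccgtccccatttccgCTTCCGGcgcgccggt

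For 3 lower members whose window overlaps another gene, only a stretch of 29 bases around the NRF1 letters is shown. Sdhd, which encodes a membrane anchor of complex II, had them 70 bases before its start. Ndufa8 and Ndufa11, accessory subunits of complex I, had them within their windows as well. Ndufs6 and Sdha, which did not pass as lower, also had NRF1 letters in windows that overlap other genes and are not shown.
Sdhd, chr9:50603910-50603938, minus strand: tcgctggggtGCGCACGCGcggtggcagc
Ndufa8, chr2:36049349-36049377, minus strand: tagagcagtgCGCTTGCGCgtcgctggag
Ndufa11, chr17:56717692-56717720, plus strand: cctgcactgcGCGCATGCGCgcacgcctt

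The NRF1 letters, on either strand, lay in the windows of 7 of the 34 members with an entry (20.6%) and in 5.86% of the windows of 27025 genes. They lay in 3 of the 17 members that fell in DM or TM MEFs against WT, at an adjusted p under 0.05, and in 4 of the other 17. The GABP letters lay in 6 of the 34 (17.6%), against 7.83% of all genes, with 2 in the members that fell and 4 in the others. Matches of the NRF1 letters can overlap where both strands read alike, as in Cox6a1. A match is a description of these letters and not of a bound site.

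Respiratory chain genes were lower in DM than in WT MEFs for 20 of the 43 members (46.5%) at an adjusted p under 0.05, and higher for 0, while 2 were higher after quantile and 3 after cyclic loess normalization. Over all genes, 19.8% were lower and 17.0% higher at that threshold. Nearly all members are bright, and among the 11059 genes left without dim probe sets the background was larger, with 34.29% lower and 23.59% higher, and 21 members were lower in that fit. At an unadjusted p under 0.05, 1 member was higher in limma's test, Cox15, and the methods' t-test found 0 higher at its adjusted p. That t-test was run here on the RMA values alone, with an adjustment over all genes added. The methods name no such adjustment and also ask for the threshold in PLIER values, so it is not the study's own criterion. The median change of the members was -0.18 on the log2 scale, which left 88.4% of the WT level, and the median of all genes was 0.02. The members' median was -0.08 after quantile and -0.09 after cyclic loess normalization. With median centring, 23 members were lower, while the split over all genes was 25.36% lower and 12.45% higher.

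**Figure D1:**
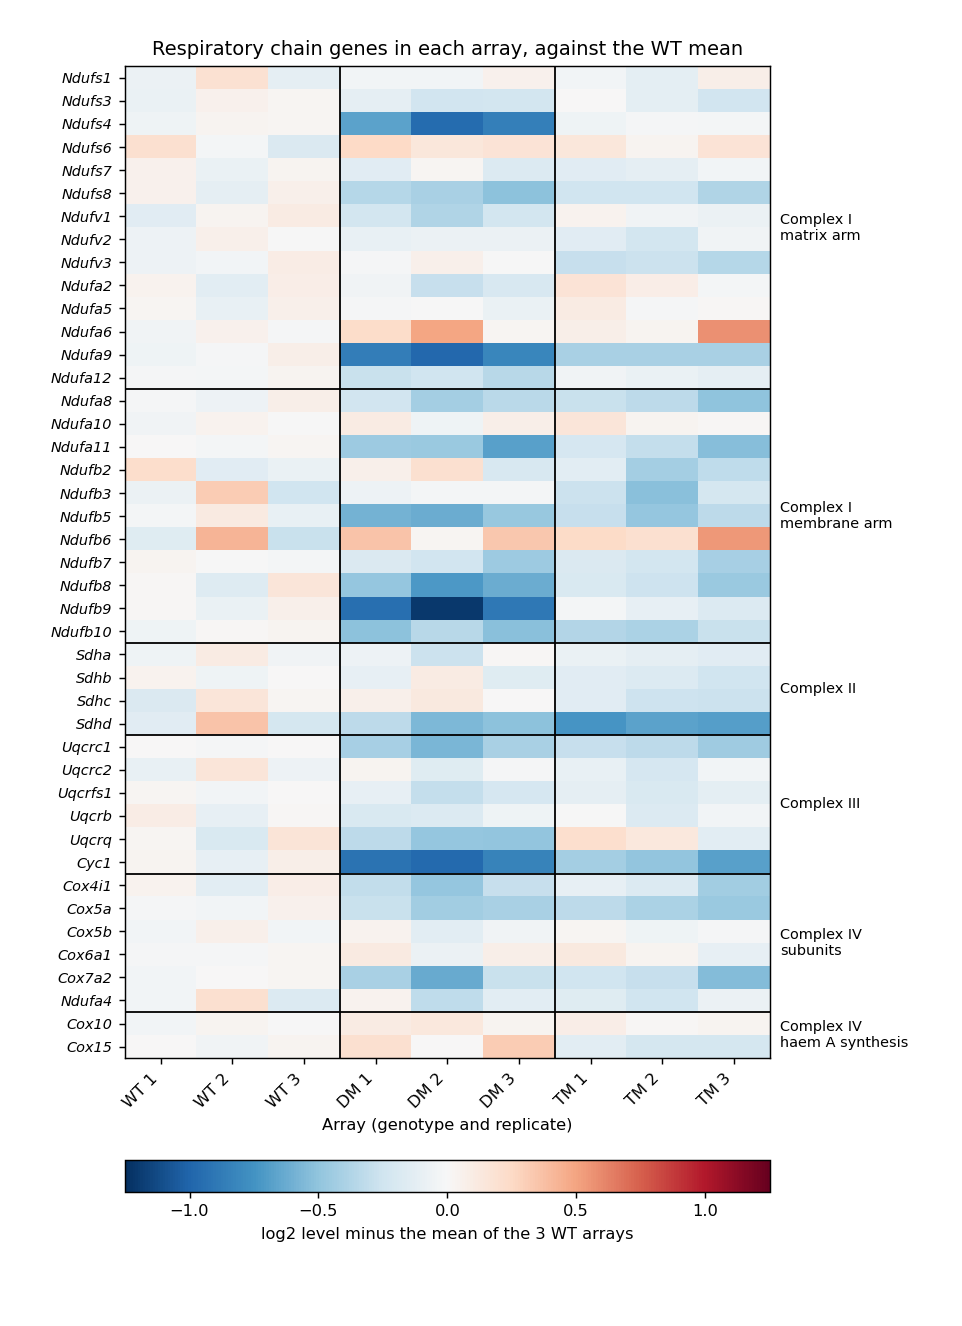
Log2 level of each of the 43 members on each of the 9 arrays, minus the mean of the 3 WT arrays, with blue for lower and red for higher. Rows are genes in 6 groups and columns are arrays; Ndufs4, Ndufa9, Ndufb9 and Cyc1 are the darkest blue rows in DM, and Sdhd is in TM.

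Of these, 5 were called lower, which also asks for a change over 1.5-fold: Ndufb9, Cyc1, Ndufa9, Ndufs4 and Ndufb8. Over all genes, 5.67% were called lower and 5.28% higher. Of the members, 0 were called higher, and 0 passed 1.5-fold upwards at an unadjusted p under 0.05 in limma's test or after the methods' t-test. The 3 DM arrays lay below all 3 WT arrays for 22 members, as they did for 23.9% of all genes. For 30 members the 95% interval of the change lay within 1.5-fold in either direction, against 81.9% of all genes.

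Ndufb9, an accessory subunit of the complex I membrane arm, had the largest change of the members. Its level was 11.95, 11.85 and 12.00 on the WT arrays, 10.99, 10.73 and 11.04 on the DM arrays and 11.90, 11.83 and 11.76 on the TM arrays. The DM arrays were all far below the others, while WT and TM overlapped. The change was -1.01 ± 0.08 (SE) in DM against WT, which left 49.5% of the WT level (adjusted p = 7.74e-07). Against WT, TM differed by -0.10 (95% interval -0.28 to 0.08, adjusted p = 0.43), and TM was 0.91 ± 0.08 above DM (adjusted p = 2.54e-06).

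Ndufs4, a small accessory subunit needed for the stability of the NADH-oxidising module of complex I, showed similar levels. It was at 12.57, 12.65 and 12.64 in WT, at 11.95, 11.66 and 11.77 in DM and at 12.56, 12.60 and 12.60 in TM. Again the DM arrays were below all others, with WT and TM arrays overlapping. Against WT, DM was lower by 0.83 ± 0.07, at 56.2% of the WT level (log2 change -0.83, adjusted p = 1.36e-06), and TM differed by -0.03 (95% interval -0.19 to 0.12). TM was 0.80 ± 0.07 higher than DM (adjusted p = 2.43e-06). Ndufb9 and Ndufs4 were the members called in TM against DM.

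Ndufa9 and Cyc1 had DM levels below those of TM and TM levels below those of WT. Ndufa9, an accessory subunit beside the coenzyme Q site, was at 11.80, 11.83 and 11.92 in WT, 10.98, 10.86 and 11.04 in DM, and 11.45, 11.44 and 11.45 in TM. The 3 genotypes did not overlap. The change was -0.89 ± 0.06 in DM (adjusted p = 1.67e-07) and -0.40 ± 0.06 in TM (adjusted p = 0.000234) against WT, and TM was 0.48 ± 0.06 above DM (adjusted p = 5.56e-05). Cyc1 encodes cytochrome c1, the complex III subunit that hands electrons to cytochrome c. Its level was 12.14, 12.01 and 12.18 in WT, 11.19, 11.14 and 11.28 in DM and 11.69, 11.62 and 11.43 in TM, again with no overlap between genotypes. It was lower by 0.91 in DM, at 53.3% of WT (log2 change -0.91 ± 0.08, adjusted p = 1.07e-06), and changed by -0.53 ± 0.08 in TM (adjusted p = 0.000144).

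Ndufb8, an accessory subunit of the complex I membrane arm often used to follow assembled complex I on blots, was near the 1.5-fold threshold. Its levels were 10.78, 10.61 and 10.92 in WT, 10.29, 10.06 and 10.15 in DM and 10.58, 10.51 and 10.31 in TM. The arrays of both mutants lay below those of WT, and 1 TM array came close to the highest of DM. The change in DM was -0.61 ± 0.09 (adjusted p = 0.000211), and in TM -0.31 ± 0.09 (adjusted p = 0.0244). It was -0.54 after quantile and -0.52 after cyclic loess normalization, -0.53 without WT replicate 3 and -0.55 without DM replicate 2, and the 1.5-fold threshold was then missed.

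**Figure D2:**
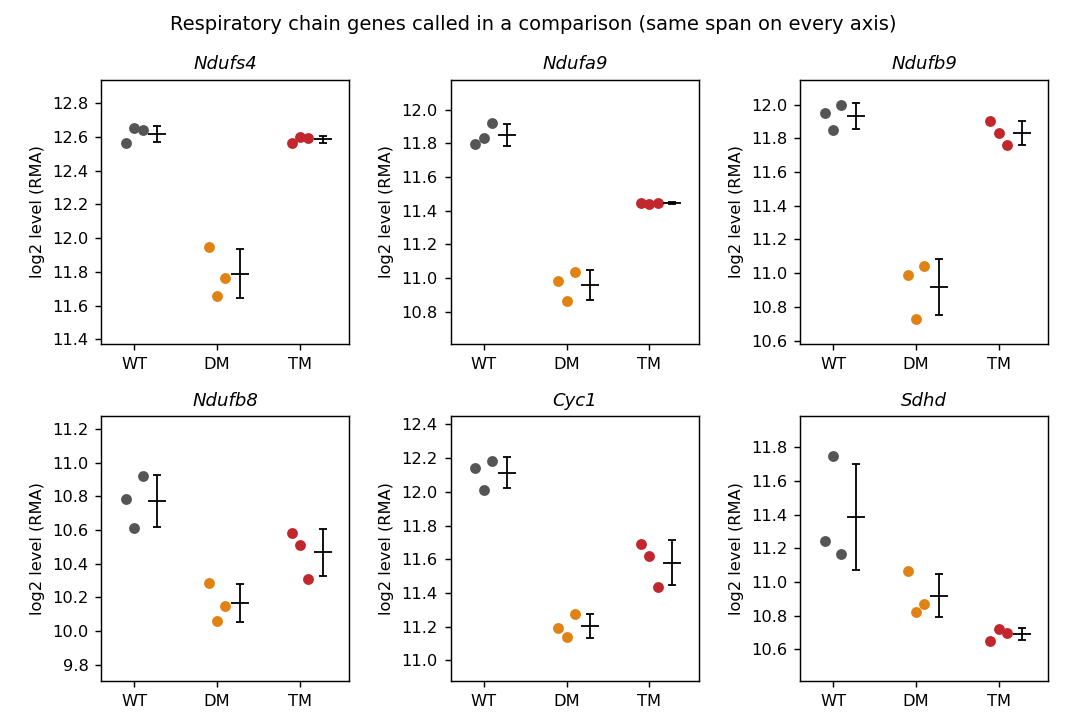
Log2 level on each array (points) of the 6 members called in any comparison, with the mean and SD of the 3 arrays of each genotype beside them. DM lies apart from WT and TM for Ndufs4 and Ndufb9, TM lies between for Ndufa9 and Cyc1, and TM is lowest for Sdhd.

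In TM against WT MEFs, 14 of the 43 members (32.6%) were lower at an adjusted p under 0.05 and 0 higher, and 0 were also higher after each of the 3 other scalings, while 1 was higher without WT replicate 2. Over all genes, 18.0% were lower and 13.8% higher, and without dim probe sets 30.99% were lower and 19.82% higher, with 20 members lower. At an unadjusted p under 0.05 in limma's test 0 members were higher, and the methods' t-test likewise found 0. The median change was -0.14 and that of all genes -0.03. The members' median was -0.10 after quantile and -0.09 after cyclic loess normalization, with 15 and 12 members lower. After cyclic loess, 14.82% of all genes were lower and 16.71% higher. With median centring, 22 members were lower and the split over all genes was 23.57% lower and 11.88% higher. In this comparison 1 member was called, Sdhd, against 3.56% of all genes called lower and 5.59% called higher. The TM arrays lay below all WT arrays for 19 members, as they did for 25.1% of all genes, and for 39 members the 95% interval lay within 1.5-fold, against 84.8% of all genes. The comparisons of DM and of TM with WT share the WT arrays.

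Sdhd, a membrane anchor of complex II that holds its haem and coenzyme Q site, was at 11.24, 11.75 and 11.17 in WT, at 11.06, 10.82 and 10.87 in DM and at 10.65, 10.72 and 10.70 in TM. The second WT array was well above the other WT arrays, and the 3 genotypes did not overlap. The change was -0.70 ± 0.12 in TM, at 61.7% of WT (adjusted p = 0.000798), and -0.47 ± 0.12 in DM (adjusted p = 0.00995). Without WT replicate 2 the TM change was -0.52 (adjusted p = 0.000475), below 1.5-fold. By the methods' t-test, with the adjustment added here, the adjusted p in TM against WT was 0.0697.

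In TM against DM MEFs, 9 members were higher and 3 lower at an adjusted p under 0.05, against 15.4% and 16.5% of all genes. Without dim probe sets, 24.97% of genes were higher and 24.03% lower, and 10 members were higher and 4 lower in that fit. The median change was 0.03, that of all genes -0.05. The 9 were Ndufs4, Ndufv1, Ndufa2, Ndufa9, Ndufa12, Ndufb8, Ndufb9, Uqcrq and Cyc1, and the 3 were Ndufv3, Sdhc and Cox15. Ndufs4 and Ndufb9 were called higher, where 4.68% of all genes were called higher and 3.61% lower. Of the members, 0 were called lower, and 0 were so at an unadjusted p under 0.05 or by the methods' t-test. For 39 members the 95% interval lay within 1.5-fold, against 86.0% of all genes.

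**Figure D3:**
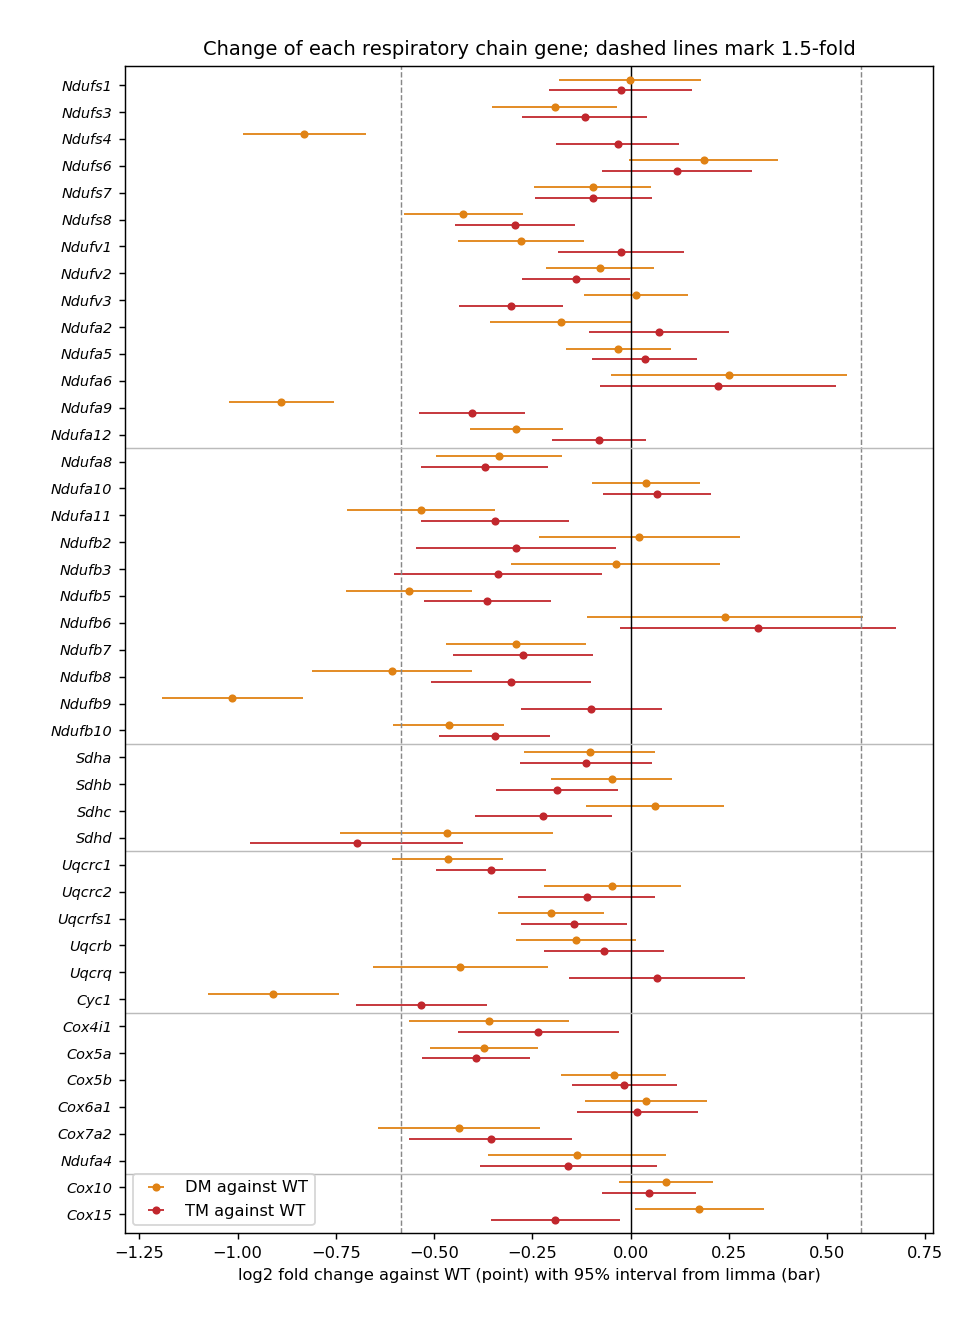
Log2 fold change of each member in DM (orange) and TM (red) against WT, with the 95% interval from limma as a bar and dashed lines at 1.5-fold. The DM intervals of Ndufb9, Cyc1, Ndufa9 and Ndufs4 lie wholly beyond the lower dashed line.

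Complex I has a matrix arm, which oxidises NADH, and a membrane arm, which pumps protons. Of 14 matrix arm members, 5 were lower in DM (35.7%) and 3 in TM (21.4%) than in WT MEFs, with median changes of -0.14 and -0.06. Over all genes 19.8% and 18.0% were lower, so the share in TM was near the background. Among genes left without dim probe sets, in a fit of their own, 34.29% and 30.99% were lower. Against that, the matrix arm share in DM was near the background as well, and that in TM was below it. Of 11 membrane arm members, 7 were lower in DM (63.6%) and 6 in TM (54.5%), with medians of -0.34 and -0.31. The difference between the arms was not tested.

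In the matrix arm, Ndufs8, an iron-sulfur subunit on the path to coenzyme Q, was at 12.15, 11.99 and 12.16 in WT, 11.74, 11.70 and 11.58 in DM and 11.85, 11.85 and 11.72 in TM. Both mutants lay below WT, by -0.43 ± 0.07 (adjusted p = 0.000357) and -0.29 ± 0.07 (adjusted p = 0.00587). Ndufv1, which binds NADH and FMN, changed by -0.28 ± 0.07 in DM (adjusted p = 0.00983), by -0.02 in TM against WT (95% interval -0.18 to 0.14), and was 0.25 higher in TM than in DM. Ndufa12, an accessory subunit near Ndufs4 in the assembled complex, changed by -0.29 ± 0.05 in DM (adjusted p = 0.000972) and by -0.08 in TM (adjusted p = 0.323). Ndufv3, a small subunit of the NADH-oxidising module, had levels of 9.65, 9.68 and 9.81 in WT, 9.70, 9.77 and 9.71 in DM and 9.42, 9.45 and 9.36 in TM. It was the member with the largest fall of this arm in TM against DM, at -0.32 ± 0.06 (adjusted p = 0.00144), and was lower by 0.30 in TM against WT (log2 change -0.30, adjusted p = 0.00181).

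The other iron-sulfur subunits of this arm did not pass the test against WT. Ndufs1, the largest subunit of the complex, differed by -0.00 in DM (95% interval -0.18 to 0.18) and -0.03 in TM. Ndufs7 differed by -0.10 and -0.09, and Ndufv2 by -0.08 and -0.14. Ndufs3, a core subunit with 2 probe sets, differed by -0.19 in DM (adjusted p = 0.0561), and its other probe set by -0.23. Ndufs6, a zinc-binding subunit, had a difference of 0.19 in DM (adjusted p = 0.121) and passed as higher after quantile (0.25) and cyclic loess (0.27) normalization. Ndufa6, an accessory subunit of the LYR family, had the largest rise of the arm in both mutants, at 0.25 and 0.22, and did not pass. Its levels were 10.30, 10.39 and 10.32 in WT, 10.56, 10.83 and 10.36 in DM and 10.40, 10.37 and 10.91 in TM, so 1 array of each mutant stood well above its group. Ndufa2 differed by -0.18 in DM and 0.07 in TM against WT and was 0.25 higher in TM than in DM (adjusted p = 0.0339), and Ndufa5 differed by -0.03 and 0.04.

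In the membrane arm, Ndufb5 was at 10.65, 10.79 and 10.58 in WT, 10.08, 10.05 and 10.19 in DM and 10.38, 10.19 and 10.35 in TM. The mutant arrays lay below those of WT, by -0.56 ± 0.07 in DM (adjusted p = 5.54e-05) and -0.36 ± 0.07 in TM (adjusted p = 0.00199). Ndufb10 changed by -0.46 ± 0.06 and -0.35 ± 0.06, and Ndufa11 by -0.53 ± 0.09 and -0.35 ± 0.09. The second probe set of Ndufa11 differed by -0.37 and -0.26. Ndufa8, an accessory subunit of the intermembrane space face, was at 11.76, 11.71 and 11.85 in WT, 11.53, 11.35 and 11.43 in DM and 11.49, 11.44 and 11.27 in TM. It had the largest fall of this arm in TM, -0.37 ± 0.07 (adjusted p = 0.0018), and changed by -0.33 ± 0.07 in DM (adjusted p = 0.00313). Ndufb7 changed by -0.29 ± 0.08 in DM (adjusted p = 0.0138) and -0.27 ± 0.08 in TM (adjusted p = 0.0215).

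The other 4 membrane arm members did not pass against WT. Ndufa10 differed by 0.04 in DM and 0.07 in TM. Ndufb2, the dimmest member, differed by 0.02 in DM and by -0.29 in TM (adjusted p = 0.0812), and its difference of -0.31 in TM against DM was the lowest of the arm. Ndufb3 differed by -0.04 and -0.34 (adjusted p = 0.0531 in TM). Ndufb6 had levels of 11.53, 12.11 and 11.41 in WT, 12.04, 11.71 and 12.02 in DM and 11.92, 11.88 and 12.22 in TM. Its second WT array was among the highest of all 9, and its differences of 0.24 and 0.32 were the largest rises of the arm. Without that array the differences were 0.45 (adjusted p = 0.0137) and 0.54 (adjusted p = 0.00601), so that Ndufb6 then passed as higher in both.

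Complex II, which is also succinate dehydrogenase of the TCA cycle, had Sdhd as its member that passed against WT. Sdha, the flavoprotein that oxidises succinate, differed by -0.10 in DM (95% interval -0.27 to 0.06) and -0.11 in TM (-0.28 to 0.05). Sdhb, its iron-sulfur subunit, differed by -0.05 and -0.19 (adjusted p = 0.0641 in TM). Sdhc, the other membrane anchor, was at 11.57, 11.90 and 11.78 in WT, 11.81, 11.87 and 11.75 in DM and 11.61, 11.49 and 11.48 in TM. It had the largest rise of the complex in DM, 0.06, and the largest fall in TM against DM, -0.28 ± 0.08 (adjusted p = 0.0168).

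In complex III, 4 of 6 members were lower in DM and 2 in TM than in WT MEFs. The background was 19.8% and 18.0% of all genes, and 34.29% and 30.99% without dim probe sets. Uqcrc1, a core protein on the matrix side, was at 12.37, 12.35 and 12.37 in WT, 11.95, 11.79 and 11.96 in DM and 12.07, 12.04 and 11.92 in TM. Its WT arrays were close to each other and above all mutant arrays. The change was -0.47 ± 0.06 in DM (adjusted p = 9.07e-05) and -0.36 ± 0.06 in TM (adjusted p = 0.000919). Uqcrq, a small subunit next to cytochrome b, was at 10.68, 10.47 and 10.82 in WT, 10.34, 10.18 and 10.16 in DM and 10.87, 10.79 and 10.53 in TM. It was lower in DM against WT by -0.43 ± 0.10 (adjusted p = 0.00493), differed by 0.07 in TM (95% interval -0.16 to 0.29) and was 0.50 ± 0.10 above DM in TM (adjusted p = 0.00233). Uqcrfs1, the Rieske iron-sulfur protein, changed by -0.20 ± 0.06 in DM (adjusted p = 0.0215) and by -0.14 in TM (adjusted p = 0.103). Uqcrc2, the other core protein, differed by -0.05 and -0.11, and Uqcrb by -0.14 and -0.07.

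In complex IV, 3 of 6 subunit genes were lower in DM and 2 in TM, against the same 19.8% and 18.0% of all genes. Without dim probe sets the background was again 34.29% and 30.99%. Cox7a2, the widely expressed isoform of a small subunit, was at 11.64, 11.68 and 11.69 in WT, 11.26, 11.04 and 11.39 in DM and 11.42, 11.38 and 11.13 in TM. The mutant arrays were all lower, by -0.44 ± 0.09 in DM (adjusted p = 0.00278) and -0.36 ± 0.09 in TM (adjusted p = 0.0115). Cox5a was at 11.59, 11.56 and 11.65 in WT, 11.32, 11.16 and 11.19 in DM and 11.28, 11.20 and 11.14 in TM, and changed by -0.37 ± 0.06 (adjusted p = 0.000454) and -0.39 ± 0.06 (adjusted p = 0.00036). Cox4i1, the widely expressed isoform of the subunit that binds ATP, changed by -0.36 ± 0.09 in DM (adjusted p = 0.00876) and differed by -0.23 in TM (adjusted p = 0.0793). TM differed from DM by 0.13 in Cox4i1 (adjusted p = 0.332), the largest rise of the complex in that comparison.

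Cox5b and Cox6a1 were among the members with the smallest differences. Cox5b differed by -0.04 in DM (95% interval -0.18 to 0.09) and -0.02 in TM (-0.15 to 0.12), and its second probe set by -0.05 and 0.00. Cox6a1 was at 12.04, 12.04 and 12.07 in WT, 12.16, 11.98 and 12.13 in DM and 12.18, 12.08 and 11.94 in TM, with overlapping genotypes. Ndufa4, first assigned to complex I and now counted as a complex IV subunit, differed by -0.14 and -0.16 with 95% intervals of -0.36 to 0.09 and -0.38 to 0.07.

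The enzymes that convert haem B to haem A for complex IV did not pass the test against WT. Cox10, the haem farnesyltransferase, differed by 0.09 in DM and 0.05 in TM against WT, and passed as higher in DM after cyclic loess normalization, at 0.16. Cox15, which carries out the next step, was at 9.60, 9.55 and 9.62 in WT, 9.78, 9.60 and 9.91 in DM and 9.46, 9.36 and 9.37 in TM. Its difference was 0.17 in DM (adjusted p = 0.0921) and -0.19 in TM (adjusted p = 0.0735) against WT. TM was lower than DM by -0.37 ± 0.08 (adjusted p = 0.00235), the largest fall of any member in that comparison. In DM against WT, Cox15 passed as higher after quantile (0.20) and cyclic loess (0.23) normalization.

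Other subunits of the same complexes, and the lists after them, are counted against the same background. Over all genes this was 19.8% lower and 17.0% higher in DM, and 18.0% lower and 13.8% higher in TM. Without dim probe sets it was 34.29% lower and 23.59% higher in DM, and 30.99% lower and 19.82% higher in TM. Of 9 other complex I subunits measured, 4 were lower in DM and 3 in TM. Of 8 other subunits of complexes III and IV, 6 were lower in DM and 4 in TM. Cox6b1, the complex IV subunit on the intermembrane space side, was at 11.93, 12.11 and 12.13 in WT, 11.32, 11.26 and 11.07 in DM and 11.41, 11.25 and 11.06 in TM. The mutant arrays overlapped each other and lay below WT, by -0.84 ± 0.09 (adjusted p = 1.47e-05) and -0.82 ± 0.09 (adjusted p = 2.28e-05). Uqcr11, a small complex III subunit, was called lower in TM, at -0.88 ± 0.12 (adjusted p = 8.86e-05), and changed by -0.43 in DM. Of the 13 subunits encoded by mitochondrial DNA, COX2 and ND3 were measured. COX2 differed by 0.08 in DM and 0.13 in TM, and ND3 by -0.00 and 0.01, and these probe sets may also read nuclear copies of mitochondrial DNA.

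**Figure D4:**
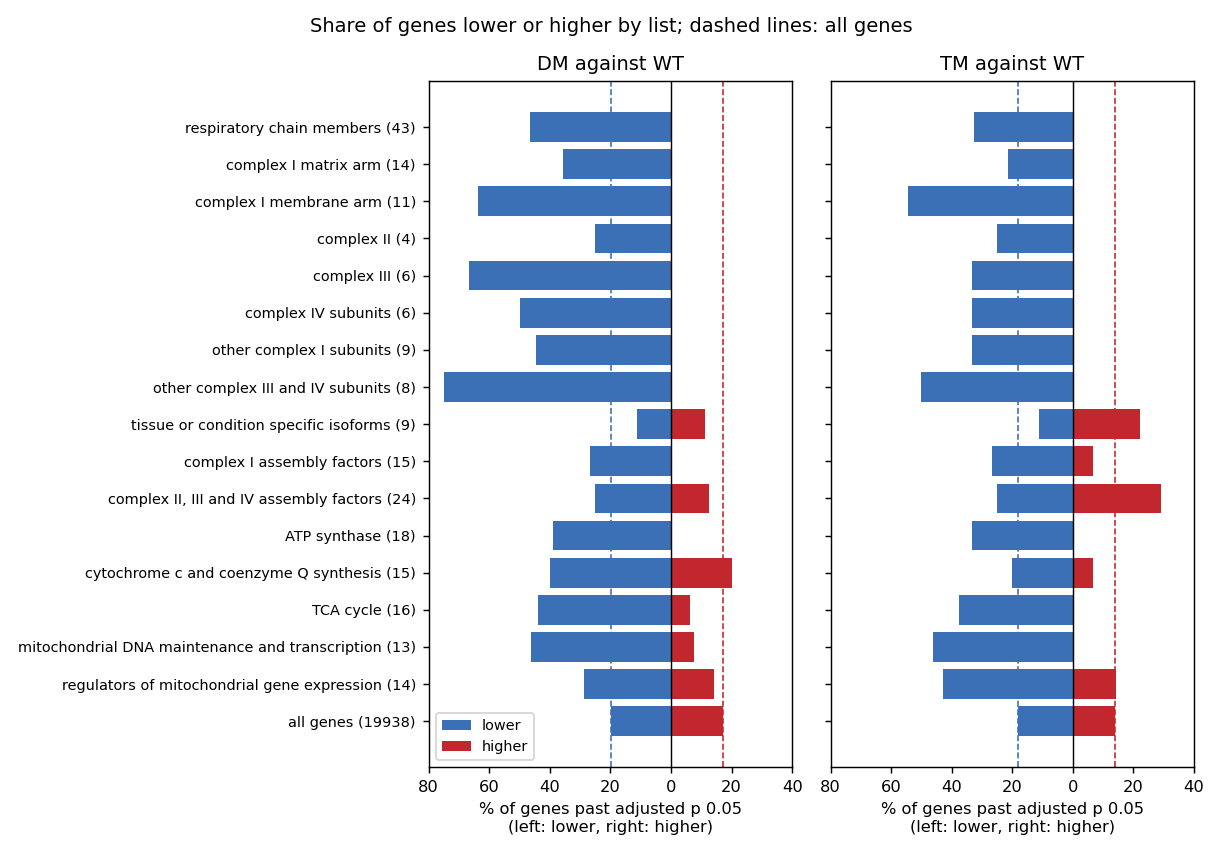
Share of genes in each list, with its number of genes in brackets, that were lower (blue, to the left) or higher (red, to the right) at an adjusted p under 0.05 in DM and in TM against WT. Dashed lines give the share over all genes, 19.8% lower and 17.0% higher in DM; the members and their complexes have blue bars and no red ones.

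Isoforms used in particular tissues or conditions gave counts in both directions, as of 9 measured, 1 was lower and 1 higher in DM, and 1 was lower and 2 higher in TM. Cox6b2, the testis form of Cox6b1, was at 6.92, 6.95 and 6.86 in WT, 7.34 on each DM array and 8.91, 8.83 and 8.66 in TM. TM was far above the others, by 1.89 ± 0.07 against WT (adjusted p = 2.93e-10), and DM was 0.43 above WT (adjusted p = 0.000211). The WT and DM levels lay below the array medians.

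Among 15 assembly factors of complex I, 4 were lower in DM, and 4 were lower and 1 higher in TM. Ndufaf2, which binds late assembly intermediates of complex I, was at 8.86, 9.07 and 9.15 in WT, 8.17, 8.14 and 8.36 in DM and 8.92, 8.84 and 8.96 in TM. It was lowest in DM, by -0.80 ± 0.08 against WT (adjusted p = 7.95e-06), and TM was 0.68 ± 0.08 above DM (adjusted p = 4.11e-05). Foxred1, another complex I assembly factor, was called lower in DM at -0.59 ± 0.12 (adjusted p = 0.00232). Among 24 assembly factors of complexes II, III and IV, 6 were lower and 3 higher in DM, and 6 lower and 7 higher in TM. Uqcc2, a factor for the synthesis of cytochrome b, was called lower in both, at -1.03 ± 0.15 (adjusted p = 0.000115) and -0.93 ± 0.15 (adjusted p = 0.000321). Its partner Uqcc1 was called lower in TM (-0.66 ± 0.07), and Coa7, a complex IV assembly factor, was called lower in DM (-0.62 ± 0.09). Lyrm7, a chaperone of the Rieske protein, and Cox18, which inserts COX2 into the membrane, were called higher in TM, by 0.71 ± 0.09 and 0.63 ± 0.05. Lyrm7 lay below the array medians on all 9 arrays, so it is not shown to be above background. Sdhaf1, an assembly factor of complex II, was called higher in TM than in DM, by 0.59 ± 0.09.

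ATP synthase, which uses the proton gradient, and the TCA cycle, which supplies NADH and succinate, moved mostly downwards among the genes that passed. Of 18 ATP synthase genes, 7 were lower in DM (38.9%) and 6 in TM (33.3%). Without dim probe sets, 34.29% and 30.99% of genes were lower, so these ATP synthase shares were near that background. The ATP synthase medians were -0.19 and -0.15, with differences between -0.57 and 0.04 in DM. Of 16 TCA cycle genes, 7 were lower (43.75%) and 1 higher in DM and 6 were lower in TM (37.5%), with medians of -0.16 and -0.15. Of 15 genes for cytochrome c and coenzyme Q synthesis, 6 were lower and 3 higher in DM, and 3 lower and 1 higher in TM. Coq8b, an ADCK family protein needed to make coenzyme Q, was at 8.91, 8.96 and 9.004 in WT, 8.32, 8.28 and 8.28 in DM and 7.74, 7.73 and 7.53 in TM. The genotypes did not overlap, and the change was -0.66 ± 0.07 in DM (adjusted p = 4.58e-06) and -1.29 ± 0.07 in TM (adjusted p = 8.89e-09).

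**Figure D5:**
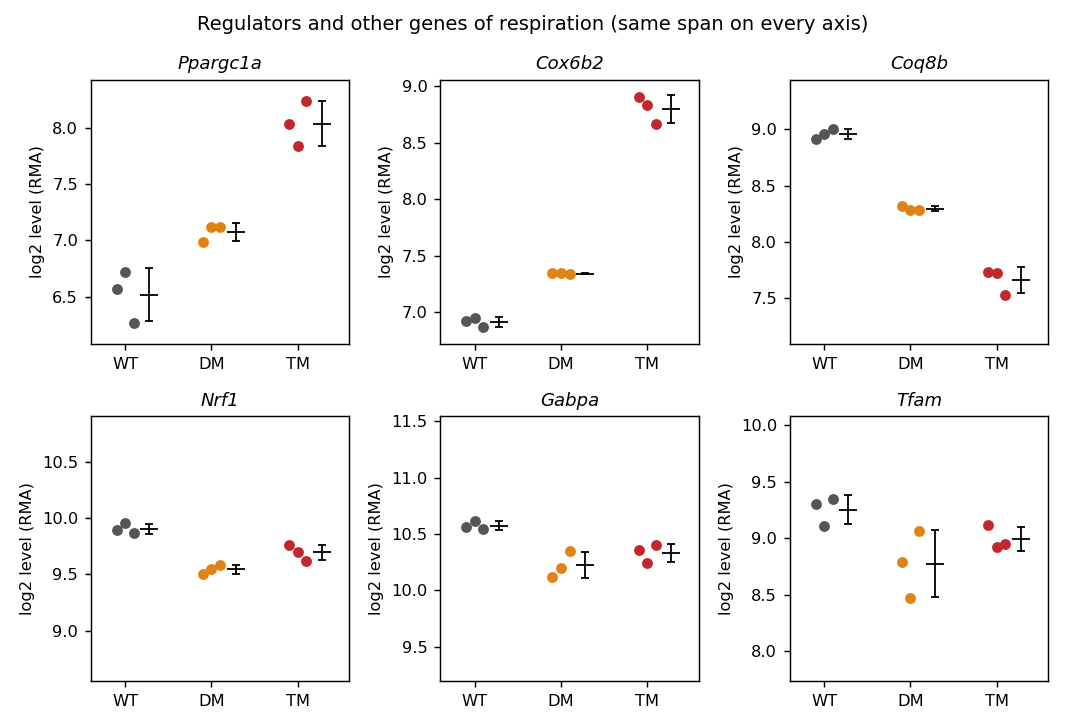
Log2 level on each array (points) of 6 genes that are not members, with the mean and SD of the 3 arrays of each genotype beside them. Ppargc1a and Cox6b2 are highest and Coq8b lowest in TM, while Nrf1, Gabpa and Tfam are lower in DM than in WT.

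Among 14 regulators of mitochondrial gene expression, 4 were lower and 2 higher in DM, and 6 lower and 2 higher in TM. Ppargc1a, the coactivator PGC-1α that raises respiratory chain genes in muscle and brown fat, was at 6.57, 6.72 and 6.26 in WT, 6.98, 7.12 and 7.12 in DM and 8.03, 7.84 and 8.24 in TM. It was above WT in both mutants, by 0.55 ± 0.12 in DM (adjusted p = 0.00235) and 1.52 ± 0.12 in TM (adjusted p = 5.41e-07), and its WT and DM levels lay below the array medians. Nrf1 and Gabpa, which encode the factors whose letters were searched above, and Tfam were named for their known roles, outside the rule for named genes. Nrf1 changed by -0.36 ± 0.06 in DM and -0.21 ± 0.06 in TM (adjusted p = 0.000315 and 0.0141). Gabpa changed by -0.35 ± 0.07 and -0.24 ± 0.07 (adjusted p = 0.00159 and 0.019). Tfam, which packages and transcribes mitochondrial DNA, changed by -0.48 ± 0.12 in DM (adjusted p = 0.00873) and differed by -0.26 in TM (adjusted p = 0.151). It belongs to 13 genes of mitochondrial DNA maintenance and transcription, of which 6 were lower and 1 higher in DM and 6 were lower in TM, with Ssbp1, the single-stranded DNA binding protein, called lower in DM at -0.61 ± 0.06 (adjusted p = 2.38e-06).

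Replicate arrays lay close together for most members. The SD within a genotype had a median of 0.09 and ran from 0.00 to 0.38 on the log2 scale, and the standard error of a difference had a median of 0.07. No member had the same value on all 3 arrays of a genotype, and 42 of the 43 were above all array medians on every array, Ndufb2 being the other. As a median over the members of each gene's level minus its mean on all arrays, the WT arrays were at 0.12, 0.15 and 0.12, the DM arrays at -0.01, -0.14 and -0.10 and the TM arrays at 0.02, -0.04 and -0.01. The WT arrays were above all others by this measure, and the DM and TM arrays overlapped.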

How the data were processed

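RNA in triplicate was hybridised to Affymetrix Gene ST arrays and read with GCOS and GeneSpring GX, where the methods name RMA and PLIER. Each probe set has 1 deposited log2 value an array, made by RMA (version not given) according to the submitters' processing notes. RMA subtracts background, puts the arrays on a common scale and combines probes, so the authors' values no longer show a difference in total signal. PLIER values were not analysed here. Arrays give no read depth, and their number limits the precision.

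The platform annotation pairs 21789 of 35556 probe sets with 1 gene symbol and 1621 with several, and leaves 12146 without. For 999 genes with several, the brightest was used, leaving 19938 genes. All 9 arrays were fitted in limma 3.58.1 (R 4.3.3) in 1 model with 6 residual degrees of freedom and Benjamini-Hochberg adjustment over all genes. A gene was called at adjusted p under 0.05 with over 1.5-fold change. Data were simulated for TM against WT over 19938 genes. Of 100 genes lowered by 0.4, 71 passed the adjusted p and 1 was called, and 98 of 100 lowered by 1 were called. Of the unchanged genes, 5 passed and 2 were called. Far fewer genes were changed there than passed in the real data, so these rates need not carry over.

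The members, lists and tests were chosen with earlier results of these data known. Any member may be named; those described in full were called, or had the largest rise or fall of their group in a comparison, and Ndufs8, Ndufb5 and Uqcrc1 were added after their values were seen. Other lists give up to 4 called genes per comparison. Lists were described by counts, with no set test. The alternatives were other scalings, probe set choices, variance models, thresholds, a dim filter, a t-test, the replicate number as a block, and leaving out each array. Marker lists of fibroblasts, skeletal and cardiac muscle, epithelium and mesothelium, leukocytes, adipocytes, neurons and glia, and endothelium were measured. Of these, 3 of 10 fibroblast markers were called lower and 2 higher in DM, and 1 lower and 4 higher in TM; of skeletal muscle, cardiac muscle, leukocyte and endothelial markers, none was called against WT at an adjusted or unadjusted p under 0.05, and 1 adipocyte marker was called higher in each mutant. Of 6 neural markers, 1 was called lower in DM and 1 higher in TM.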

Additional observations from a re-analysis of the deposited data

Results flagged for a closer look

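The change against WT differed between DM and TM for Ndufs4 and Ndufb9, both called in the direct comparison of TM with DM. Ndufs4 was 0.80 higher in TM than in DM on the log2 scale, at 0.73 to 0.88 over 19 alternatives, with adjusted p between 5.79e-07 and 0.00989. Ndufb9 was 0.91 higher, at 0.82 to 0.97, with adjusted p between 8.13e-07 and 0.0115. In both genes all 3 TM arrays lay above all 3 DM arrays. The DM arrays also differed from the TM arrays in Xist and the Y-linked genes, and the part of this in the difference was not tested.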

How the results depend on the processing

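No result past its threshold changed direction under any alternative that was run. Over single members and comparisons, 53 values lost the threshold, 20 of them by the methods' t-test, and 77 gained it. With a lower threshold, 0.32 on the log2 scale, 16, 10 and 6 members were called in DM against WT, TM against WT and TM against DM, and with a 2-fold threshold 1, 0 and 0. The shares of all genes called at these 2 thresholds were not computed, nor were those called under the other alternatives below. These counts of called members therefore have no background beside them and cannot be read as a result about the members. The methods' t-test, with the adjustment added here, passed 13 in DM against WT and 6 in TM against DM, and called 0 in TM against WT. Over all genes it passed 14.2% as lower and 12.16% as higher in DM against WT. In TM against DM it passed 8.99% of all genes as lower and 9.28% as higher. Median centring moved the median change to -0.25 in DM and -0.19 in TM, with 22 members lower in TM, quantile normalization to -0.0805 and -0.10, and cyclic loess to -0.0891 and -0.09. With each array left out in turn, 4 to 6 members were called in DM against WT, 0 to 2 in TM against WT and 2 to 3 in TM against DM, and 18 to 22, 12 to 17 and 8 to 14 passed the adjusted p. Over all genes, 16.79% to 19.83% then passed as lower in DM against WT and 14.0% to 19.43% as higher. In TM against WT these shares were 14.46% to 18.51% and 12.08% to 14.21%, and in TM against DM 13.11% to 19.71% and 12.64% to 16.02%. The members' medians then ran from -0.24 to -0.15, -0.17 to -0.12 and 0.011 to 0.0712, the lowest in DM and the highest in TM against DM both without DM replicate 1. In TM against WT, 0 members were called without WT replicate 2 and 2 without TM replicate 1. Intervals within 1.5-fold held for 27 to 31, 33 to 39 and 35 to 39 members. In DM against WT, 1 member was higher without WT replicate 1, without WT replicate 2 and without DM replicate 2.

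Same-numbered arrays deviated from their genotype means at r = -0.24 to 0.17, and arrays of other numbers at -0.36 to 0.25. No pairing by number was seen, but with 3 arrays a genotype this check cannot exclude one. With the replicate block, 20 members passed in DM, 15 in TM and 13 in TM against DM, and 5, 1 and 2 were called. Of all genes, 18.86% then passed as lower and 16.34% as higher in DM, and 17.01% and 13.29% in TM. In TM against DM these shares were 15.43% and 14.66%. The shares of all genes called with the block were not computed.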
